A study of Rattus norvegicus with 63 samples.

Results

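Methyl carbamate (Mcarb) is the methyl ester of carbamic acid, a small water-soluble carbamate that the study counts among the non-genotoxic hepatocarcinogens, i.e. compounds that cause liver tumours without directly damaging DNA. The data described here are the miRNA profiles of the livers of 3 rats given Mcarb and of the 3 vehicle-treated rats of control set 1, the set that the sample labels name for Mcarb. These are 6 of the 63 arrays of the series, and 162 of the 350 miRNAs on the array, those detected on at least 1 of the 63 arrays, were tested. All rats were male Wistar Hanover animals, 8 to 10 weeks old at assignment, and were dosed by gastric gavage. Mcarb was given at 400 mg/kg per day for 14 days, and the control rats received the cellulose vehicle for the same 14 days. For the controls the labels and the methods text name it methylcellulose, while the methods text gives carboxymethyl cellulose as the vehicle of Mcarb. Direct comparisons used rats given acetamide (AA, 3000 mg/kg per day), another non-genotoxic hepatocarcinogen with the same control set, and rats given the non-hepatocarcinogens cefuroxime (CFX, 250 mg/kg per day) and nifedipine (Nif, 3 mg/kg per day), 3 rats each and all for 14 days. The 3 rats of each treatment group were chosen from a larger dose group because histopathology found some liver changes in them. Their mean, their differences from control rats and the spread between them may therefore differ from those of the whole group. Each rat gave 1 array of total RNA from whole liver, where fewer cells of a type and less RNA per cell cannot be told apart.

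miRNAs are short RNAs that pair with messenger RNAs mainly through their seed, bases 2 to 8 from the 5′ end, and lower the translation or the stability of their targets. miRNAs with the same seed are grouped into families, and several are cut from a shared primary transcript that lies within a protein-coding gene. The liver is known for its very high miR-122, the miR-15/16 family is known to restrain cyclins and BCL2, and miR-34a is a transcriptional target of p53.

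The sequences of the miRNAs on which the results turn are shown first, because seeds and genomic neighbours group them. Names on the array are those of its design. All 18 names looked up matched a mature miRNA of RefSeq on build GRCr8, with the arm taken from the present naming of each miRNA, since the files used here hold no probe sequences. Capitals mark the seed. Members of the miR-15/16 seed family (AGCAGCA) were
miR-15b: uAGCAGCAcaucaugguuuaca
miR-16: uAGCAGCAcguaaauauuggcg
miR-195: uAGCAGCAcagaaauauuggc
miR-497: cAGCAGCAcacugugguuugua
miR-322: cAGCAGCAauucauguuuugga
of which miR-15b (chr2:155555197-155555218, plus strand) and miR-16 (chr2:155555343-155555364, plus strand) both lie within the span of Smc4, which encodes a condensin subunit used in mitotic chromosome assembly. miR-195 and miR-497 neighbour each other on chromosome 10, and miR-322 is on chromosome X.

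The second group comes from the minus strand of chromosome 12, within the span of Mcm7, a subunit of the replicative DNA helicase. It comprises miR-25 (chr12:22156652-22156673), miR-93 (chr12:22156894-22156916) and miR-106b (chr12:22157103-22157123). Their relatives miR-17 and miR-92a, shown for the shared seeds AAAGUGC and AUUGCAC, come from the miR-17-92 cluster and its copies.
miR-93: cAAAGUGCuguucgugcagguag
miR-106b: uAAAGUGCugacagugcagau
miR-17: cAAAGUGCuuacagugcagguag
miR-25: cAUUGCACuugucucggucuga
miR-92a: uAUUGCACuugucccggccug

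Separate seeds belong to 3 further miRNAs named often below. miR-338 (chr10:105796345-105796367, minus strand) lies within the span of Aatk, miR-194 has copies on chromosomes 1 and 13, and miR-34a is on chromosome 5 (chr5:165815971-165815992, plus strand).
miR-338: uCCAGCAUcagugauuuuguuga
miR-194: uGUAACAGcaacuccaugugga
miR-34a: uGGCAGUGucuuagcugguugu

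The scanner software detected 118, 110 and 105 miRNAs in Mcarb rats 1, 2 and 3, and 141, 96 and 102 in control rats 4, 5 and 6. Over these 6 arrays 93 miRNAs were detected on all and 204 on none, and no miRNA was detected in all rats of one group and none of the other. All 6 arrays were rated in range by the software, and no spot was saturated. Mcarb rats 1 and 3 were hybridized on slide 5 and control rats 5 and 6 on slide 8, both scanned on day 2. Mcarb rat 2 and control rat 4 shared slide 9, scanned on day 3, where the median spot brightness was 75 and 78 units against 148.5 to 152 on the other 4 arrays. The labelling spike-in reading of these 2 arrays was 3.03 and 3.04. On scan day 2 it was 3.53 and 3.51 in Mcarb rats 1 and 3, and 3.24 and 3.36 in control rats 5 and 6. The 3 Nif rats, also on slide 8, had 3.50 each. The part of labelling in the differences was not tested. The number of arrays limits the precision, and the limma p-values rest on the spread between rats within all 21 groups, not on these 6 rats alone.

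The arrays of control set 1 went against the authors' value table. Deviations of each miRNA from its mean over all arrays were correlated, across the 71 miRNAs detected on every array, between the table's columns and the scanner files. The 3 Mcarb columns followed their own files, with r of 0.858, 0.906 and 0.908. In contrast, the columns of control set 1 correlated with their own files at 0.234, 0.564 and 0.544 and with the files labelled control set 5 at 0.874, 0.885 and 0.864. In all, 15 of the table's columns followed the file of another sample, those of control sets 1, 2 and 5 and of the compounds diethylstilbestrol (DES) and dehydroepiandrosterone (DHEA). The sources do not settle which assignment is right. The scanner files were used as labelled, and results are also given under the table's assignment, which sets Mcarb against the arrays labelled control set 5. Values quoted from the table differ from the others both in processing and in the control arrays.

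miR-15b rose in the livers of Mcarb rats, and it had the smallest p-value of the 162 miRNAs. Normalized log2 intensity was 8.61, 8.66 and 8.86 in Mcarb rats 1, 2 and 3 and 8.21, 8.16 and 8.35 in control rats 4, 5 and 6. Every Mcarb rat lay above every control rat. The means of 8.71 ± 0.13 (SD, n = 3) and 8.24 ± 0.10 (SD, n = 3) differed by 0.47 on the log2 scale (SE 0.07, 95% confidence interval 0.33 to 0.61, a 1.38-fold level), with a limma adjusted p of 2.86e-06. Within slide 9, which held 1 rat of each group, the difference was 0.44. Within scan day 2 it was 0.48, but there Mcarb was on slide 5 and control on slide 8, so group and slide cannot be told apart. Under the table's array assignment the difference was 0.29, adjusted p = 0.0172 (limma). The call was lost in 2 of the 20 alternatives, with slide as a fixed block (0.44, adjusted p = 0.110) and with only the 2 groups in the model (0.47, adjusted p = 0.297).

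**Figure D1:**
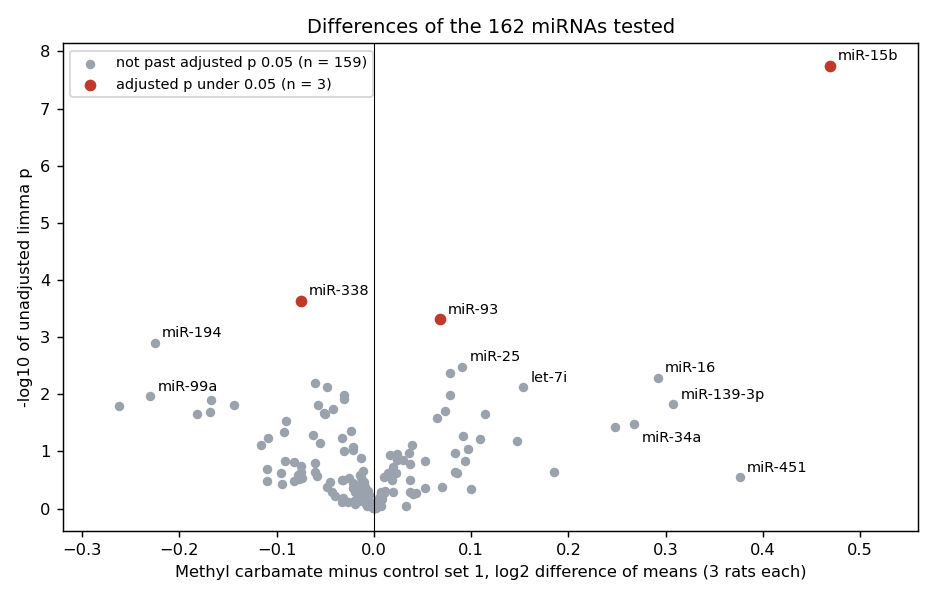
Difference between the mean of the 3 Mcarb rats and the mean of the 3 rats of control set 1 (x axis, log2) against -log10 of the unadjusted limma p (y axis), 1 point for each of 162 miRNAs. The 3 red points are past an adjusted p of 0.05, and miR-15b at 0.47 stands apart from the others.

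In all, 3 of 162 miRNAs, 1.85% of those tested, passed an adjusted p of 0.05 (limma with the Benjamini-Hochberg adjustment), 2 of them higher (1.23%) and 1 lower (0.617%). At an unadjusted p under 0.05 there were 32 (19.8%), 13 higher (8.02%) and 19 lower (11.7%). No miRNA differed by 1.5-fold or more on this scale, the median difference of all 162 was -0.01 and the median size of a difference was 0.03 (log2). These values carry the brightness of the array background. The 204 miRNAs undetected on all 6 arrays had a median of 7.40 on every array, so differences are compressed, the more so near that level. With other processing of the labelled arrays miR-15b was at 0.67 after normexp background correction and 1.16 with the processed signal scaled by the 75th percentile of probes detected on all arrays. miR-34a was at 1.18 under the latter. The table gave 0.63 for miR-15b and 1.05 for miR-34a. Calls numbered 19 (18 higher, 1 lower) with the 75th percentile of probes detected on all arrays. They numbered 15 (7 higher, 8 lower) with that of all probes. No call was made with slide as a fixed block or with only the 2 groups in the model.

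miR-93, which lies with miR-25 and miR-106b in Mcm7, was the other miRNA that rose. Mcarb rats had 7.58, 7.58 and 7.63 and control rats 7.56, 7.49 and 7.54 (log2). The groups did not overlap, but the gap between them was small. The difference was 0.07 (SE 0.02), with a limma adjusted p of 0.0264. miR-93 was detected in 3 of 3 Mcarb rats and 2 of 3 control rats. Within slide 9 the difference was 0.02, and within scan day 2, where the groups were on separate slides, it was 0.09. It was larger in the value table (0.24, adjusted p = 0.413), after normexp (0.13, adjusted p = 0.0545) and with the 75th percentile of probes detected on all arrays (1.44, adjusted p = 0.00206). miR-93 passed in 10 of the 20 alternatives. The call was lost, among others, under the table's array assignment (0.04, limma adjusted p = 0.418) and with slide as a fixed block (0.02, adjusted p = 0.979). It was also lost without Mcarb rat 3 (0.05, adjusted p = 0.367) and without control rat 5 (0.05, adjusted p = 0.199). Pooling control sets 1, 2 and 5 gave 0.05 (limma adjusted p = 0.0786), and pooling all methylcellulose sets gave 0.04 (adjusted p = 0.179). Control set 1 had the lowest miR-93 mean of the 21 groups (7.53), and Mcarb had the 8th highest (7.60).

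miR-338, transcribed within Aatk and best known from neural tissue, was the only miRNA that fell past the threshold. Mcarb rats had 7.55, 7.57 and 7.53 and control rats 7.65, 7.64 and 7.58 (log2), without overlap. Its difference of -0.07 (SE 0.02) had a limma adjusted p of 0.0188. It was not well above background in any Mcarb rat and in only 1 of 3 control rats, so both levels lie near background. With each Mcarb array taken at no less than its dimmest miRNA well above background, the control mean was 1.05-fold the Mcarb mean. This is a ratio of means and not a lower limit. miR-338 passed in 7 of the 20 alternatives. The call was lost, among others, under the table's array assignment (-0.02, limma adjusted p = 0.728) and with slide as a fixed block (-0.08, adjusted p = 0.306). It was also lost without Mcarb rat 3 (-0.07, adjusted p = 0.253), control rat 4 (-0.06, adjusted p = 0.167) or control rat 5 (-0.07, adjusted p = 0.117). Pooling control sets 1, 2 and 5 gave -0.04 (limma adjusted p = 0.186), and pooling all methylcellulose sets gave -0.03 (adjusted p = 0.249). Control set 1 had the highest miR-338 mean of the 21 groups (7.62), with the other methylcellulose sets at 7.57 to 7.58. Mcarb was the 18th.

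The seed family of miR-15b did not move as a block. miR-16, which is cut from the same primary transcript as miR-15b, had 9.40, 9.44 and 9.67 in Mcarb rats and 9.19, 9.05 and 9.40 in control rats (log2). The lowest Mcarb rat and the highest control rat thus had nearly the same value. The difference of 0.29 (SE 0.10, 95% confidence interval 0.09 to 0.49) did not pass the threshold (limma adjusted p = 0.118). miR-16 passed in 2 of the 20 alternatives. These were the 75th percentile of probes detected on all arrays (0.51, limma adjusted p = 0.00312) and the fit without control rat 6 (0.39, adjusted p = 0.0201). miR-195 and miR-497, from the cluster on chromosome 10, gave differences of -0.09 (SE 0.11) and -0.02 (SE 0.09). miR-322 gave -0.01 (SE 0.04). With these, the list tested held miR-322*, the other arm of miR-322, which is not in the seed family and was detected in none of the 6 rats. Of these 6 miRNAs 1 rose, none fell and 5 did not pass the test. Their median was -0.01, equal at this precision to the median of all miRNAs. Whether probes of near-identical family members share signal was not tested.

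All 3 members of the Mcm7 cluster had positive differences, and 1 of them, miR-93, passed. miR-25 gave 0.09 (SE 0.03, limma adjusted p = 0.106) and miR-106b 0.07 (SE 0.03, limma adjusted p = 0.140). In each of them the 3 Mcarb rats lay above the 3 control rats, an order seen in 13 of all 162 miRNAs (8.02%). Their median of 0.07 compares with -0.01 over all miRNAs. It was 0.28 in the authors' value table and 0.02 with slide as a fixed block. With the processed signal scaled by the 75th percentile of probes detected on all arrays it was 0.62, and all 3 members passed. Counted from the top of the 21 groups, control set 1 was the 21st, 20th and 21st for miR-93, miR-25 and miR-106b. Mcarb was the 8th, 8th and 12th. The members of the related miR-17-92 cluster gave no call, with 0 of 7 past the threshold in either direction, 2 of 7 above 0 and a median of -0.01. Among them miR-17, with the seed of miR-93, gave -0.01 (SE 0.02), and miR-92a, with the seed of miR-25, gave -0.03 (SE 0.07). miR-19b gave -0.11 (SE 0.08), or -0.20 to -0.05 with 1 rat left out in turn, and miR-18a was detected in only 1 of the 6 rats.

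**Figure D2:**
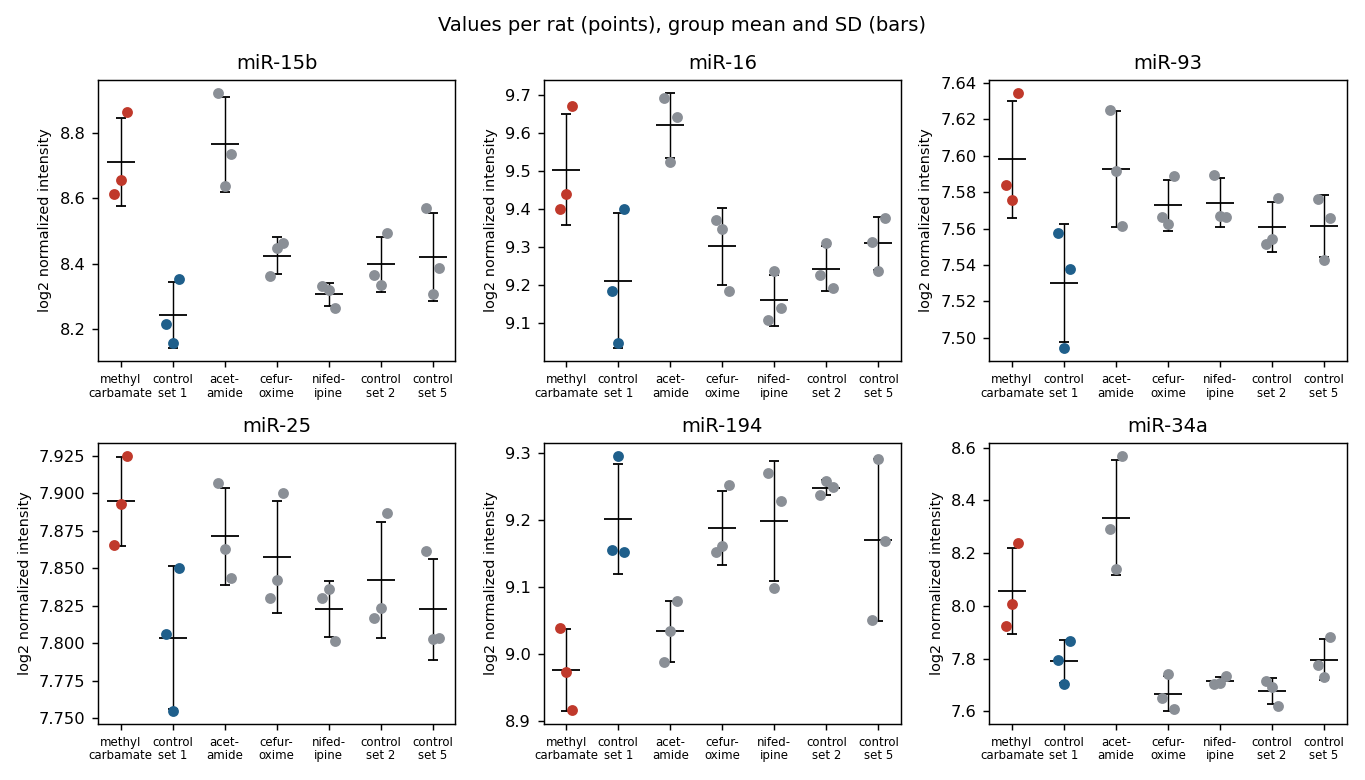
Normalized log2 intensity (y axis) of 6 miRNAs in every rat (points) of 7 groups given 14 days of treatment (x axis), with group mean and SD as bars, Mcarb in red and control set 1 in blue. For miR-15b the 3 Mcarb rats lie between 8.61 and 8.86 and the 3 rats of control set 1 between 8.16 and 8.35.

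The 7 miRNAs with the next smallest p-values did not pass the threshold. The first of them was miR-194, which is abundant in hepatocytes and intestine and shares primary transcripts with miR-192 and miR-215. Mcarb rats had 9.04, 8.97 and 8.92 and control rats 9.16, 9.30 and 9.15 (log2). Every Mcarb rat was below every control rat. The difference was -0.23 (SE 0.07, a 1.17-fold lower level), and its limma adjusted p of 0.0505 was the smallest above the threshold, next to 0.0264 for miR-93 as the largest below it. It passed in 6 of the 20 alternatives. Besides miR-25 and miR-16, the others were miR-7a at 0.08 (SE 0.03), let-7i at 0.15 (SE 0.05), miR-140* at -0.06 (SE 0.02) and miR-203 at -0.05 (SE 0.02), with limma adjusted p-values from 0.115 to 0.121. In the value table the difference of miR-203 was 0.11, i.e. in the other direction.

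Altogether 35 of 162 miRNAs (21.6%) had no overlap between the groups, 13 higher and 22 lower (13.6%) in Mcarb. The Mcarb rats did not deviate to the same extent, since rat 3 had the highest miR-15b, miR-16, miR-93, miR-25 and miR-34a and the lowest miR-194 of the 3. Without rat 3 the number called fell to 1, miR-15b. Leaving out control rat 6 gave 12 calls, and these comprised the 3 called with all rats.

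Hepatocyte miRNAs did not pass the test, 0 of 8 in either direction. None had a positive difference, against 68 of all 162 miRNAs, and their median was -0.09 against -0.01 over all. With the 75th percentile of probes detected on all arrays 3 of 8 were positive, while all 8 were below the median of all miRNAs. The defining markers in this list were miR-122, miR-192 and miR-194. Among the 8, miR-193* was detected in only 1 of the 6 rats. Besides miR-194, miR-193 was at -0.26 (SE 0.10), with 8.99, 9.08 and 8.73 in Mcarb rats and 9.08, 9.60 and 8.91 in control rats (log2). Its groups overlapped and control rat 5 was high. Without that rat the difference was -0.06, and with slide as a fixed block it was 0.00. Smaller differences were those of miR-101a with -0.11 (SE 0.06) and miR-192 with -0.08 (SE 0.07). The median relative to all miRNAs was -0.09 as reported and -0.05 without slide 9, while it was -0.13 in the value table, -0.17 with the 75th percentile of probes detected on all arrays and -0.19 with that of all probes. miR-122, the defining miRNA of hepatocytes, was detected in all 6 rats. It had 14.66, 14.67 and 14.66 in Mcarb rats and 14.67, 14.66 and 14.67 in control rats, but as the brightest miRNA it is held close to the same value on most arrays by quantile normalization (14.21 to 14.70 over all 63 arrays), so this scale can compress a change. In the value table it was 14.6 ± 0.26 in Mcarb and 14.8 ± 0.02 in the columns labelled control set 1 (SD, n = 3).

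Markers of other cells were examined beside these values. All 7 leukocyte miRNAs that were tested had positive differences, against 68 of all 162 miRNAs. None was past the threshold, the median was 0.04, and 4 of 7 were positive with slide as a fixed block. miR-150 was at only 0.00036 (SE 0.02). Of the 7, miR-146b was detected in none of the 6 rats and miR-342-3p in 1, so their signs are those of values at background. The median relative to all miRNAs was 0.04 as reported, 0.03 with slide as a fixed block, 0.09 after normexp, 0.18 in the value table, and 0.43 and 0.41 with the 75th percentile of probes detected on all arrays and of all probes. miR-142-3p, which is restricted to blood-forming lineages, had 8.76, 9.02 and 9.11 in Mcarb rats and 8.79, 8.72 and 8.63 in control rats (log2). Rats 2 and 3 were high and rat 1 lay within the controls. Its difference was 0.25 (SE 0.12, limma adjusted p = 0.203). The summed linear intensity of the 7 was 1682, 1796 and 1897 units in Mcarb rats and 1676, 1644 and 1655 in control rats, background brightness included. Of the defining markers miR-142-3p, miR-142-5p, miR-223 and miR-150 were detected in all 6 rats.

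The red blood cell miRNAs miR-451 and miR-144 varied widely among the Mcarb rats. miR-451 had 10.29, 10.39 and 9.34 in Mcarb rats and 9.67, 9.35 and 9.87 in control rats (log2). Mcarb rats 1 and 2 were the highest and rat 3 the lowest of the 6. The difference of 0.38 had an SE of 0.35, and that of miR-144 was 0.18 (SE 0.15), with 0 of 2 called. Leaving out 1 rat in turn gave 0.19 to 0.71 for miR-451 and 0.09 to 0.36 for miR-144. Their summed intensity was 1607, 1697 and 898 units in Mcarb rats and 1087, 928 and 1224 in control rats. The rat with the highest miR-15b thus had the lowest red blood cell sum of the 6. The part of red blood cells and leukocytes in the other differences was not tested.

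Stellate and smooth muscle markers gave 0 calls of 4 and a median of -0.03. miR-143 was at 0.10 (SE 0.06), or 0.03 without Mcarb rat 3, and miR-199a-5p at -0.05 (SE 0.02), and miR-145 was not detected on any array. The endothelial miR-126 and miR-126* were at -0.02 (SE 0.06) and -0.02 (SE 0.02). None of the 5 striated muscle and 4 neural miRNAs on the array passed the detection filter, and miR-375 of the pancreas list was detected in only 1 of the 6 rats.

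**Figure D3:**
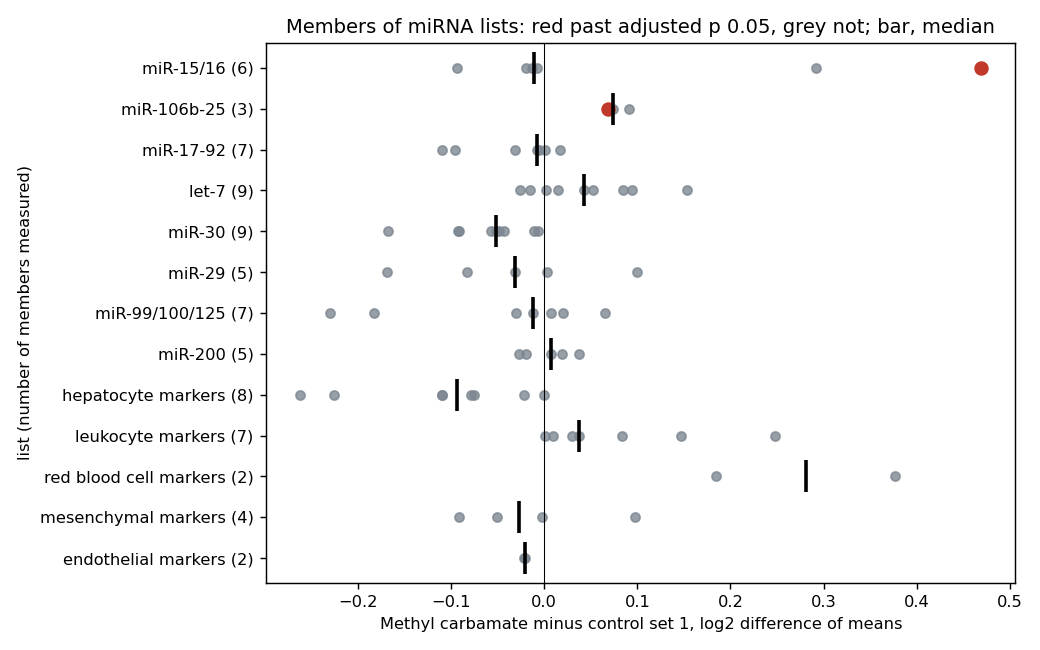
Log2 difference of Mcarb from control set 1 (x axis) for each tested member (points), detected or not in these 6 rats, of 13 lists of miRNAs (y axis), with the list median as a bar. Only miR-15b and miR-93 are past an adjusted p of 0.05 (red), and all 9 members of the miR-30 list and all 8 hepatocyte miRNAs lie at or below 0.

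The list of the miR-30 family, abundant in hepatocytes and kidney, had negative differences in 9 of 9 miRNAs. There were 0 calls and the median was -0.05. Besides family members it holds miR-30a*, miR-30b-3p, miR-30c-2* and miR-30e*, opposite arms that are not in the seed family. Of these arms, miR-30b-3p and miR-30c-2* were each detected in only 1 of the 6 rats. Over all 162 miRNAs 94 differences were negative. miR-30b-5p had 8.51, 8.41 and 8.57 in Mcarb rats and 8.62, 8.74 and 8.63 in control rats, without overlap, and its difference was -0.17 (SE 0.06, limma adjusted p = 0.136). miR-30a, the brightest member, gave -0.05 (SE 0.06), or -0.08 to -0.01 with 1 rat left out in turn. With the 75th percentile of probes detected on all arrays 4 of 9 members were above 0, while all 9 were below the median of all miRNAs. The list of the let-7 family, which targets RAS and LIN28, had 7 of 9 positive differences. It includes let-7d*, the opposite arm of let-7d, which was detected in none of the 6 rats. This list had 0 calls and a median of 0.04, and only let-7i lacked overlap. Its median turned to -0.24 with the 75th percentile of all probes, which also moved the median of all miRNAs to -0.21, and let-7f, the brightest, went from 0.04 (SE 0.07) to the same -0.24. The miR-29 family, which targets collagens, gave -0.08 (SE 0.08) for miR-29a, 0.10 (SE 0.13) for miR-29b and -0.17 (SE 0.07) for miR-29c. In its list, which also holds the opposite arms miR-29a* and miR-29c*, 0 of 5 were called. Leaving out 1 rat in turn gave -0.14 to -0.02 for miR-29a. In the list of miR-99a and its relatives miR-99a was at -0.23 (SE 0.09, limma adjusted p = 0.136) and lower in every Mcarb rat, miR-125b-5p was at -0.18 (SE 0.08), and 0 of 7 passed. Of the 7, 3 had positive differences, and the median was -0.01. Among these 3, miR-125a-3p at 0.07 (SE 0.03) was higher in every Mcarb rat but was detected in only 1 of the 6 rats.

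miR-34a had 7.92, 8.01 and 8.24 in Mcarb rats and 7.80, 7.70 and 7.87 in control rats (log2). The groups did not overlap, with rat 3 highest. Its difference of 0.27 (SE 0.12) did not pass (limma adjusted p = 0.181), whereas it passed with the 75th percentile of probes detected on all arrays (1.18, adjusted p = 0.00458) and in the value table (1.05, adjusted p = 0.0481). miR-34b and miR-34c were detected in none of the 6 rats. The epithelial miR-200 family gave 0 calls of 5, with miR-200b at -0.03 (SE 0.09), miR-200c at 0.04 (SE 0.06) and a median of 0.01. miR-200c and miR-141 were detected in 1 of 3 control rats and miR-429 in 1 of the 6 rats, and miR-200c was at 0.94 (adjusted p = 0.488) with the 75th percentile of probes detected on all arrays. miR-21, often raised in proliferating or inflamed liver, was at 0.07 (SE 0.08), or 0.03 without Mcarb rat 3, and miR-21* was detected in none of the 6 rats.

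No call was made in the remaining lists either. miR-107 of the miR-103 list was at -0.05 (SE 0.05), miR-27b at -0.12 (SE 0.06) and miR-23b at -0.07 (SE 0.05). Leaving out 1 rat in turn gave -0.17 to -0.06 for miR-27b, nearest 0 without Mcarb rat 3, and -0.14 to -0.0047 for miR-23b, nearest 0 without control rat 5. miR-26a and miR-26b gave -0.08 (SE 0.07) and -0.06 (SE 0.05). With 1 rat left out in turn miR-26b ran from -0.095 to -0.015 and miR-107 from -0.075 to -0.021. miR-181a and miR-221 were at 0.00 (SE 0.02) and 0.00 (SE 0.02), and miR-96 was detected in only 3 of the 6 rats. Of the 42 miRNAs of the imprinted Dlk1-Dio3 region on the array, 3 passed the filter, among them miR-494 at 0.03 (SE 0.24) and miR-487b, which was detected in 2 of the 6 rats.

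Control set 1 as labelled was low in miR-15b. Over the 21 groups its mean of 8.24 was the 20th from the top, and Mcarb was the 3rd, after dimethylnitrosamine (DMN, 8.97 ± 0.07) and AA (8.77 ± 0.15), and before methapyrilene (MPy, 8.67 ± 0.08, SD, n = 3 each). The values of Mcarb overlapped those of AA and MPy. Every Mcarb rat lay above all 15 rats of the other methylcellulose and corn oil sets, of which the highest single value was 8.58. Control sets 2 and 5 had means of 8.40 ± 0.08 and 8.42 ± 0.13. The arrays that the value table assigns to set 1 are those labelled set 5, whose mean was the 13th, so the low place of set 1 holds for the labelled assignment only. With sets 1, 2 and 5 pooled the difference of Mcarb was 0.36 (limma adjusted p = 4.34e-05), and with all methylcellulose sets pooled it was 0.33 (limma adjusted p = 0.000264). Between control sets 0 of 162 miRNAs passed, both for set 1 against set 2 and for set 1 against set 5 (0% each), with 21 (13%) and 16 (9.88%) at an unadjusted p under 0.05. For miR-93 and miR-338 control set 1 as labelled had the lowest and the highest mean of the 21 groups, and Mcarb was the 8th and the 18th. Durations, doses, vehicles and scan days differ among the 21 groups, and the order is a description. The other codes in the plot of all groups stand for ethionine (ETH), thioacetamide (TAA), Wy-14643 (Wy), cyproterone acetate (CPA), C.I. Direct Black (CIDB), phenobarbital (PB), piperonylbutoxide (PBO), and the methylcellulose (MC) and corn oil (CO) control sets.

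**Figure D4:**
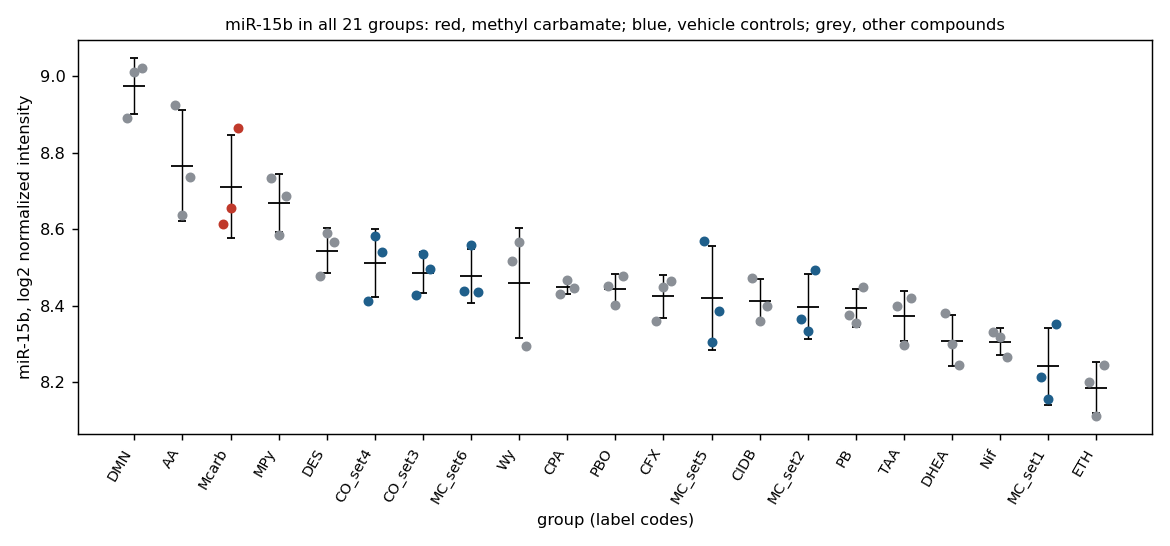
miR-15b, normalized log2 intensity (y axis), in the 3 rats of each of the 21 groups (x axis, label codes), ordered by mean, with mean and SD as bars. Mcarb, in red, has the 3rd highest mean at 8.71, and control set 1, in blue, the 20th at 8.24.

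Acetamide was compared with Mcarb directly because it is a related small molecule. Acetamide carries a methyl group on the carbonyl where methyl carbamate carries a methoxy group. The doses were not matched, at 3000 and 400 mg/kg per day, so the comparison is of the 2 treatments as given. At limma's adjusted p of 0.05, 0 of 162 miRNAs differed between Mcarb and AA (0%). At an unadjusted p under 0.05 there were 18 (11.1%), 4 higher (2.47%) and 14 lower (8.64%) in Mcarb. AA rats 1 and 2 were on slide 4, scanned on day 1, which held no Mcarb rat. With scan day as a block 1 miRNA passed, lower in Mcarb. miR-15b was 8.92, 8.64 and 8.74 in AA rats 1, 2 and 3, within the range of the Mcarb rats apart from AA rat 1, which was higher. The difference was -0.05 with a 95% confidence interval from -0.19 to 0.08. For miR-93 it was 0.01 (-0.03 to 0.04), for miR-194 -0.06 (-0.19 to 0.07) and for miR-16 -0.12 (-0.32 to 0.08). miR-338 was not well above background in any Mcarb or AA rat, so no difference is given for it. miR-34a had 8.29, 8.14 and 8.57 in AA rats against 7.92, 8.01 and 8.24 in Mcarb rats, and the difference of -0.28 was not past the threshold (limma adjusted p = 0.334). The smallest limma adjusted p, 0.0949, was shared by miR-26b (-0.19), miR-130a (-0.24), miR-30b-5p (-0.21), miR-22* (-0.08) and miR-199a-5p (-0.07), which were chosen after their values were seen. Since both compounds have control set 1, their differences from it are only given side by side, miR-15b at 0.47 in Mcarb and 0.52 in AA, miR-16 at 0.29 and 0.41, miR-34a at 0.27 and 0.55, miR-93 at 0.07 and 0.06, and miR-194 at -0.23 and -0.17.

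Against the non-hepatocarcinogens, taken as the mean of CFX and Nif, 6 of 162 miRNAs (3.7%) passed an adjusted p of 0.05 (limma), 3 higher (1.85%) and 3 lower (1.85%) in Mcarb. This comparison uses no control rat. miR-15b was higher than in both compounds, where it was 8.36, 8.45 and 8.46 in CFX rats and 8.33, 8.32 and 8.27 in Nif rats, and the difference was 0.35 (SE 0.06, limma adjusted p = 9.13e-05). miR-34a had 7.65, 7.74 and 7.61 in CFX rats and 7.71, 7.71 and 7.73 in Nif rats, all below the Mcarb rats, a difference of 0.37 (limma adjusted p = 0.0307). miR-223, a neutrophil and monocyte miRNA, was 7.83, 8.03 and 8.04 in Mcarb rats, 7.84, 7.81 and 7.87 in CFX rats and 7.79, 7.79 and 7.79 in Nif rats. Mcarb rats 2 and 3 were high and rat 1 lay among the CFX rats, with a difference of 0.15 (limma adjusted p = 0.0307).

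The lower miRNAs were miR-194, miR-31 and miR-140*. miR-194 was 9.15, 9.16 and 9.25 in CFX rats and 9.27, 9.10 and 9.23 in Nif rats, above every Mcarb rat, and differed by -0.22 (limma adjusted p = 0.0156). miR-31, known to regulate hypoxia signalling, was 7.97, 7.98 and 7.85 in Mcarb rats, 8.10, 8.07 and 8.15 in CFX rats and 8.19, 8.18 and 8.21 in Nif rats, without overlap, and differed by -0.22 (limma adjusted p = 0.00412). miR-140* differed by -0.08. With slide as a fixed block none of the 162 passed in this comparison, and without Mcarb rat 3 only 1 did. Over 22 alternatives miR-15b passed in 19, miR-31 in 18, miR-194 in 15, miR-34a in 12 and miR-223 in 10. Their differences ran from 0.27 to 0.79 for miR-15b, -0.91 to -0.17 for miR-31 and -0.69 to -0.19 for miR-194. For miR-34a they ran from 0.27 to 1.64 and for miR-223 from 0.11 to 0.71.

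**Figure D5:**
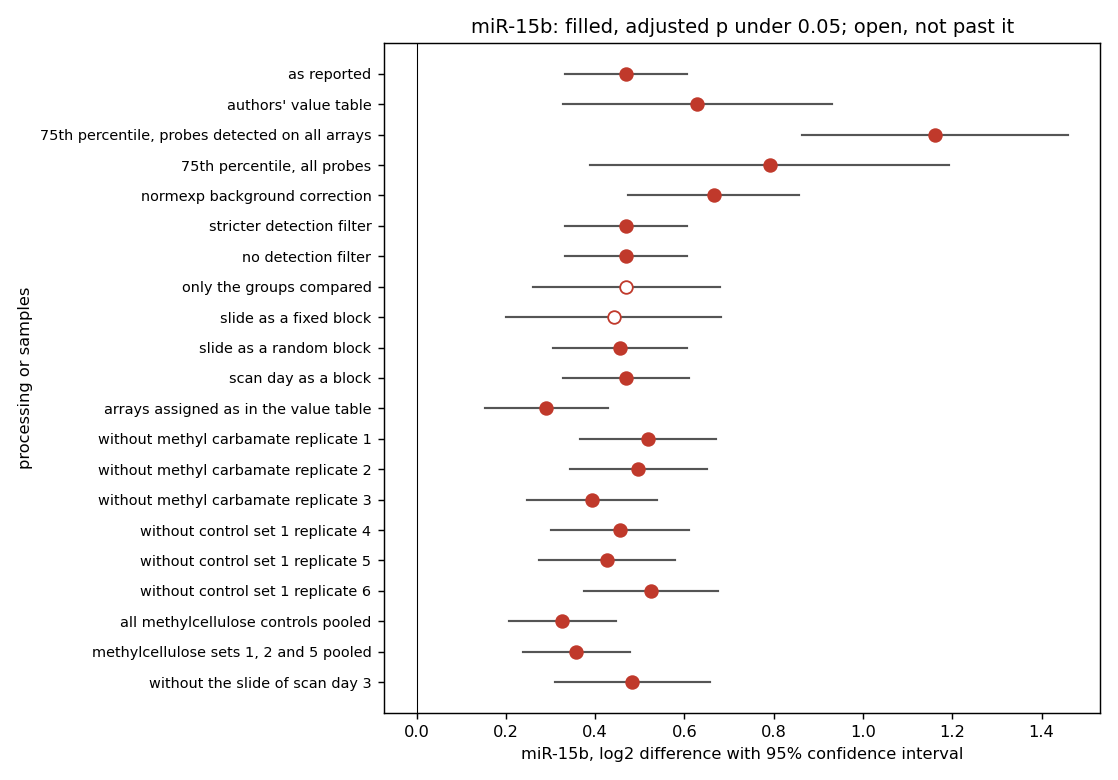
Log2 difference of miR-15b between Mcarb and control set 1 with its 95% confidence interval (x axis) under the reported processing and 20 alternatives (y axis), filled where the limma adjusted p is under 0.05. Values run from 0.29 to 1.16, and all but 2 are filled.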

How the data were processed

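Members, lists and tests were chosen with earlier results of these data known. Per the file headers, each scanner file holds intensities from a 1-colour Agilent rat miRNA array read with Agilent Feature Extraction 10.7.3.1, with the spot mean, the local background, a background-subtracted processed signal, and a detection mark per miRNA. The authors also deposited a value table of log2 values of 135 miRNAs; the submitters' processing notes and the methods name RMA, without background correction. The centring of that table stays unknown; its column medians were 4.89, 4.79 and 4.78 for Mcarb rats 1, 2 and 3.

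Here control spots and spots with outlier flags (2.44% to 3.13% on the Mcarb arrays) were left out. Spot means were quantile-normalized, averaged per probe, log2-transformed and summarized by median polish, with limma 3.58.1 and R 4.3.3. The 162 miRNAs detected on at least 1 array were fitted over 63 arrays in 21 groups with limma and Benjamini-Hochberg adjustment. The steps were tested on simulated data. Named were the called miRNAs, the 10 smallest p-values, the brightest and smallest-p member of each list, miR-34a, miR-200b and miR-29b, and the 5 largest called differences from CFX and Nif and from AA. Alternatives are given in the closing section.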

Additional observations from a re-analysis of the deposited data

Results flagged for a closer look

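The direct difference between Mcarb and the mean of the non-hepatocarcinogens CFX and Nif passed limma's adjusted threshold for 6 miRNAs in the fit as reported, a test of the difference itself. No miRNA passed with slide as a fixed block (17 at an unadjusted p under 0.05 by limma) or with the replicate block (36 at that p), and 1 passed without Mcarb rat 3. miR-15b was higher by 0.35, miR-34a by 0.37 and miR-223 by 0.15 on the log2 scale. miR-194 differed by -0.22, miR-31 by -0.22 and miR-140* by -0.084, all lower in Mcarb. Single outlying rats were not tested.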

How the results depend on the processing

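Values below are log2 differences of Mcarb from control set 1 unless a count of calls (limma adjusted p under 0.05) is named. The 49 named results kept their direction and their side of the threshold in 841 of their values under alternatives, while 61 lost a call, 23 gained one and 58 changed sign. The processed signal scaled by the 75th percentile of probes detected on all arrays gave 19 calls (18 higher, 1 lower) against the reported 3 (2 higher, 1 lower) and moved the median of all miRNAs to 0.13; miR-200b turned to 0.077, miR-122 to 0.0088, miR-126 to 0.15, miR-126* to 0.080, miR-96 to 0.10, miR-107 to 0.18, miR-26b to 0.036, miR-30a to 0.071 and miR-181a to 0.21. With the 75th percentile of all probes there were 15 calls (7 higher, 8 lower), and 50 against CFX and Nif (3 higher, 47 lower), with a median of all of -0.21; miR-29b turned to -0.18, miR-21 to -0.077, miR-143 to -0.13, let-7f to -0.24 and miR-221 to -0.088. Normexp background correction gave 1 call, with miR-96 at 0.0019 and miR-221 at -0.032. With only the groups compared there were 0 calls by limma (22 at an unadjusted p under 0.05), where the spread rests on 6 rats, and 11 against CFX and Nif. Slide as a fixed block gave 0 calls (15 at an unadjusted p under 0.05) and 0 against CFX and Nif (17 at that p), a design in which only slide 9 holds both Mcarb and control set 1; miR-29b turned to -0.023, miR-21 to -0.013, miR-21* to -0.012, miR-200c to -0.061, miR-221 to -0.012 and miR-487b to 0.0081. Slide as a random block gave 1 call and miR-221 at -0.0020, and scan day as a block gave 6, 1 against AA and 15 against CFX and Nif. The array assignment of the value table gave 1 call, miR-15b, with miR-203 at 0.0093, miR-122 at 0.0029, miR-96 at 0.0027, let-7f at -0.0064, miR-494 at -0.018 and miR-375 at 0.0059. All methylcellulose sets pooled gave 1 call, with miR-96 at 0.0020 and let-7f at -0.024, and sets 1, 2 and 5 pooled gave 3 calls, miR-15b, miR-194 and miR-30b-5p, of which 1 is among the 3 reported, with miR-122 at 0.0017 and let-7f at -0.015. In the value table miR-203 was 0.11, miR-200c -0.012, miR-96 0.0022, miR-181a 0.029 and miR-494 -0.060. Without the slide of scan day 3, an alternative chosen after seeing the data, 2 calls remained among the 3, with miR-200b at 0.047, miR-96 at 0.032, miR-181a at 0.017 and miR-375 at 0.00026. Leaving out each rat in turn gave 1 to 12 calls against control set 1, 0 to 1 against AA and 1 to 14 against CFX and Nif (14 without Mcarb rat 1, 1 without Mcarb rat 3, 3 without Nif rat 1), and ranges of -0.018 to 0.19 for miR-29b, -0.031 to 0.014 for miR-96, -0.036 to 0.11 for miR-494, -0.016 to 0.013 for miR-221, -0.069 to 0.039 for miR-200b, -0.0028 to 0.0015 for miR-122, -0.012 to 0.10 for miR-200c, -0.014 to 0.016 for miR-181a and -0.024 to 0.00013 for miR-375. Besides the sizes of the designs named, the cause was not tested.

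No paired analysis was possible for Mcarb against control set 1 because their replicate numbers, 1 to 3 and 4 to 6, are not shared. AA, CFX and Nif share the numbers 1 to 3, but deviations of same-numbered rats correlated at -0.53, 0.36 and -0.41 with AA, 0.12, -0.33 and -0.48 with CFX and 0.54, -0.01 and 0.58 with Nif, so the numbers do not pair the rats. With replicate number as a block, 0 miRNAs passed against AA (11 at an unadjusted p under 0.05) and 0 against CFX and Nif (36), by limma. Signal over background limits what can be seen of miRNAs near the background level, miR-338, miR-93, miR-96, miR-375 and miR-21* among them.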
